A study of Mus musculus with 3 samples.

Results

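DNA repair genes that act on broken, crosslinked, mismatched or damaged DNA were examined in 3 mouse cell samples. The list holds 38 genes, placed by known function in homologous recombination, Fanconi crosslink repair, end joining, mismatch repair and base excision repair. A probe carrying the gene's symbol or a synonym was found for 37 of them, out of 27242 gene labels on the array, and the Fanconi core complex gene Fancf had no such probe. These 37 genes had 74 probes, of which 55 were well above background on all 3 arrays and 7 on none.

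The groups were p53-null mouse embryonic fibroblasts (MEF), embryonic stem (ES) cells, and a further MEF sample with wild-type p53 according to the series design. Each carried the Nanog-GFP reporter, green fluorescent protein under the control of a pluripotency gene. MEF are primary fibroblasts grown from embryos, while ES cells, derived from the early embryo, are pluripotent. The series title names the role of p53 in the generation of induced pluripotent stem cells as its subject. Strain, age, passage and the number of embryos or cultures behind each RNA are not given in the labels. Cy3-labelled total RNA was measured on 1-colour Agilent arrays, 1 array per group. Without replicates no test or p-value between groups could be given, so each difference describes these arrays.

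A cell with a broken chromosome can copy the lost stretch from the sister DNA, which is homologous recombination, or rejoin the ends directly, which is end joining. Fanconi proteins detect and unhook crosslinks between DNA strands, mismatch repair corrects copying errors, and base excision repair replaces single damaged bases. Many homologous recombination, Fanconi and mismatch repair genes are transcribed mainly in dividing cells around DNA replication, whereas the core end joining factors are present throughout the cell cycle.

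Values are processed Cy3 intensities in scanner units, and differences are log2 differences after each array was divided by its own 75th percentile. That percentile was 1040 units for p53-null MEF, 834 for ES cells and 829 for MEF. The scanner software's error model, which takes 10% of a bright signal, put about 0.20 on the log2 difference of 2 bright signals. This technical error is the one meant below. Over probes printed at 10 spots and well above background, the median SD between spots was 3.62% of the mean in p53-null MEF, 3.32% in ES cells and 4.30% in MEF. Neither covers variation between cultures. Trp53, which encodes p53, gave 56.3 units in p53-null MEF, 4902 in ES cells and 1304 in MEF at its brighter probe, so the p53-null MEF value was 29.1-fold lower than that of MEF. A second Trp53 probe was 2.76-fold lower, and whether either probe lies in the deleted stretch is not given. All 7 ES cell markers were higher in ES cells than in MEF by 2-fold or more, and Pou5f1, Nanog, Zfp42 and Esrrb had no signal well above background in either MEF sample. Dppa5a and Sox2 were well above background in both MEF samples. Dppa5a gave 196 units in p53-null MEF, 251767 in ES cells and 554 in MEF, and Sox2 gave 99.1, 15830 and 122. Tdgf1 was well above background in MEF, with 41.8 units, but not in p53-null MEF. All 7 fibroblast markers were lower in ES cells than in MEF by 2-fold or more. In p53-null MEF 3 of these 7 were also lower than in MEF by as much, Dcn 5.76-fold, Lum 4.08-fold and Col3a1 2.07-fold, with a median log2 difference of -0.53 over the 7 and summed signals of 440291 units in p53-null MEF and 465698 in MEF.

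The p53-null MEF array differed from the other arrays in more than p53. It was scanned apart from them, with a median local background of 44 units against 27 on each of the others, so scan and p53 status cannot be told apart. Xist, the RNA of the inactive X chromosome, gave 7437 units in p53-null MEF and was not well above background in ES cells or MEF. The Y-linked genes Eif2s3y and Ddx3y had no such signal in p53-null MEF, whereas they gave 4104 and 1479 units in ES cells and 1236 and 526 units in MEF. Kdm5d, also Y-linked, gave 245 units in MEF but had no signal well above background in p53-null MEF or ES cells. The macrophage gene Lyz2 gave 126 units in p53-null MEF, 62.2 in ES cells and 1980 in MEF. Of 6 macrophage markers, 1 was higher and 2 were lower by 2-fold or more in p53-null MEF against MEF, with summed signals of 599 units in p53-null MEF, 584 in ES cells and 2466 in MEF. The defining macrophage genes Adgre1 and Csf1r were well above background in MEF alone, Adgre1 barely so. Ptprc, a marker of blood cells, was well above background in p53-null MEF alone, with 37.4 units, and Cd68 gave 108 units in p53-null MEF, 466 in ES cells and 145 in MEF. The part of these differences in the results below was not tested.

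The members were mostly higher in p53-null MEF and in ES cells than in MEF. In p53-null MEF, 26 of 37 exceeded the MEF value by 2-fold or more, 0 were below it by as much and 11 were neither. Over all 17256 genes measured in that comparison, 18.5% were higher and 16.7% lower by 2-fold or more. The median log2 difference of the members was 1.53, or 2.89-fold, beside 0.03 over all genes. Of the members 9 were 5-fold higher or more, beside 3.3% of all genes.

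In ES cells, 32 of 37 members exceeded the MEF value by 2-fold or more, 0 were below it by as much and 5 were neither. Over the 18586 genes measured there, 32.7% were higher and 27.2% lower by 2-fold or more. The members' median was 2.69 on the log2 scale, or 6.44-fold, beside 0.20 over all genes. Here 19 members were 5-fold higher or more, beside 13.1% of all genes. Both comparisons use the same MEF array, so any error on it enters both.

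**Figure D1:**
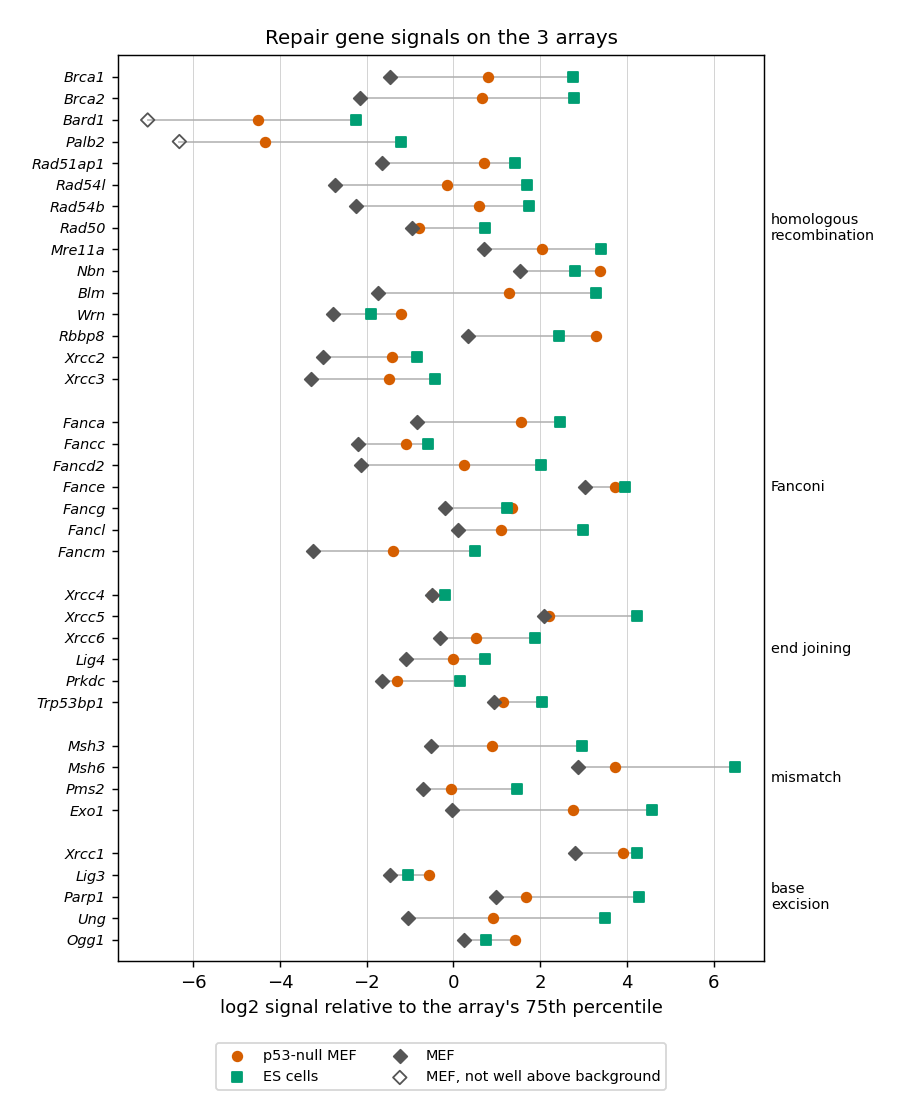
Log2 signal of each member's probe relative to the 75th percentile of its array, with a point for each array (p53-null MEF, ES cells, MEF) and the members ordered by repair pathway. Open diamonds mark Bard1 and Palb2 in MEF, which were not well above background. In 36 of 37 members the MEF point is the lowest, Xrcc4 being the exception by 0.01. For Rad50, Xrcc5 and Trp53bp1 the p53-null MEF point lies above it by less than the scanner software's error. The share of all genes with MEF lowest was not counted.

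The counts by pathway are set here beside the 18.5% of all genes that were higher by 2-fold or more in p53-null MEF and the 32.7% in ES cells. Of 15 homologous recombination genes, 14 were 2-fold higher or more in p53-null MEF than in MEF, with a median log2 difference of 1.83. Fanconi genes followed with 6 of 7 and a median of 1.53. Mismatch repair had 2 of 4 with a median of 1.13, and base excision repair 3 of 5 with a median of 1.09. End joining had 1 of 6, Lig4, which is near the share of all genes, with a median of 0.27, or 1.21-fold. The same groups had 14 of 15 in ES cells against MEF, then 6 of 7, 4 of 4 and 3 of 5, and end joining had 5 of 6. Their medians were 3.08 for homologous recombination, 2.88 for Fanconi, 3.55 for mismatch repair, 1.42 for base excision repair and 1.80 for end joining. These groups were compared by counts and medians alone.

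**Figure D2:**
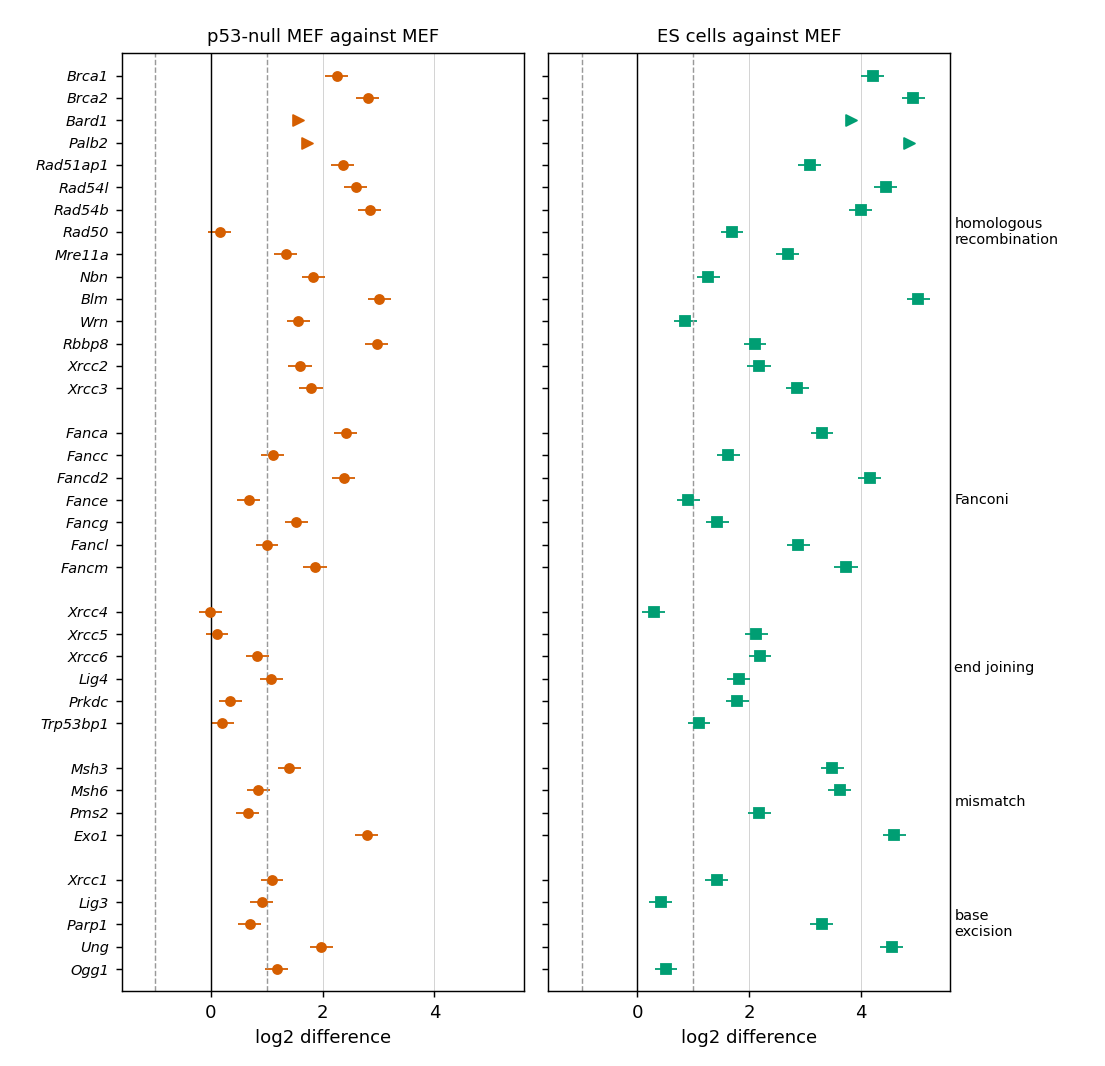
Log2 difference of each member in p53-null MEF against MEF (left) and ES cells against MEF (right). Bars are the scanner software's error, triangles are bounds for Bard1 and Palb2, and dashed lines mark 2-fold. The end joining genes Xrcc4, Xrcc5, Prkdc and Trp53bp1 lie within 0.35 of 0 in p53-null MEF against MEF, while Xrcc5 and Prkdc lie at 2.13 and 1.79 in ES cells against MEF.

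Homologous recombination starts when the MRN complex and CtIP cut back the broken ends. Rbbp8, which encodes CtIP, gave 10216 units in p53-null MEF, 4511 in ES cells and 1042 in MEF. It was therefore 7.81-fold higher in p53-null MEF and 4.30-fold higher in ES cells than in MEF, and among the members it had the lowest ES cell value relative to p53-null MEF, at -0.86 on the log2 scale. Nbn, the signalling subunit of MRN, gave 10814 units in p53-null MEF, 5855 in ES cells and 2415 in MEF, 3.57-fold and 2.41-fold higher than in MEF. Its dimmer probes were 1.80-fold and 1.85-fold higher in p53-null MEF, below the 2-fold threshold. The nuclease gene Mre11a gave 4308 units in p53-null MEF, 8783 in ES cells and 1356 in MEF. It was 2.53-fold higher in p53-null MEF and 6.44-fold higher in ES cells than in MEF, but 2 further Mre11a probes were 1.24-fold and 1.17-fold higher in p53-null MEF. Rad50, the ATPase of the complex, gave 596 units in p53-null MEF, 1381 in ES cells and 425 in MEF. Its difference between p53-null MEF and MEF was 0.16 on the log2 scale, within the error of 0.20, and it was 3.23-fold higher in ES cells. At their brightest probes the 3 subunits of MRN thus differed in p53-null MEF, with Rad50 alone near the MEF level.

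The BRCA1 and BRCA2 proteins, bridged by PALB2, act on the cut DNA before strand exchange. Brca1 gave 1800 units in p53-null MEF, 5608 in ES cells and 302 in MEF, which is 4.76-fold and 18.5-fold higher than in MEF. A second Brca1 probe, dimmer on every array, differed less, with 1.82-fold in p53-null MEF and 5.51-fold in ES cells. Brca2 gave 1635 units in p53-null MEF, 5741 in ES cells and 186 in MEF, 7.01-fold and 30.7-fold higher than in MEF. A dimmer Brca2 probe, not well above background in MEF, was at least 3.39-fold and at least 19.4-fold higher. Bard1, the partner of BRCA1 in a ubiquitin ligase, gave 45.5 units in p53-null MEF, 176 in ES cells and 6.25 in MEF, where it was not well above background. Its p53-null MEF value was therefore at least 2.93-fold higher and its ES cell value at least 14.1-fold higher. Such a bound sets the bright signal against the lowest signal well above background on the dim array. Palb2 gave 51.1 units in p53-null MEF, 363 in ES cells and 10.4 in MEF, again not well above background in MEF. Its bounds were at least 3.29-fold higher for p53-null MEF and at least 29.2-fold higher for ES cells. All 4 genes thus had their lowest signal in MEF and their highest in ES cells.

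Strand exchange with the intact copy is helped by motor proteins of the RAD54 type. Rad54l, which encodes one of them, gave 936 units in p53-null MEF, 2711 in ES cells and 124 in MEF, 6.01-fold and 21.7-fold higher than in MEF. Rad54b gave 1561 units in p53-null MEF, 2790 in ES cells and 173 in MEF, 7.17-fold and 16.0-fold higher. A dimmer Rad54b probe was 4.49-fold higher in p53-null MEF and 3.90-fold higher in ES cells than in MEF, so that the ES cell value of this gene depends on the probe. Another Rad54b probe, not well above background in MEF, gave a bound of 1.79 on the log2 scale in p53-null MEF. Rad51ap1 gave 1695 units in p53-null MEF, 2241 in ES cells and 263 in MEF, 5.13-fold and 8.46-fold higher than in MEF. Xrcc2, a further homologous recombination gene, gave 391 units in p53-null MEF, 470 in ES cells and 103 in MEF, 3.02-fold and 4.51-fold higher. Another Xrcc2 probe gave larger differences, 5.40-fold in p53-null MEF and 14.5-fold in ES cells, and 2 dimmer probes gave bounds. Xrcc3, which acts in the same pathway, gave 371 units in p53-null MEF, 625 in ES cells and 85.4 in MEF, 3.46-fold and 7.27-fold higher than in MEF.

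Blm and Wrn encode RecQ helicases, which unwind DNA intermediates. Blm, whose probe lies at chr7:80328870-80328929 on the minus strand of mm8, gave 2512 units in p53-null MEF, 8106 in ES cells and 247 in MEF. It had the largest measured difference of the 37 members in both comparisons with MEF, 8.09-fold higher in p53-null MEF and 32.6-fold higher in ES cells. Wrn gave 451 units in p53-null MEF, 222 in ES cells and 122 in MEF, 2.96-fold and 1.81-fold higher than in MEF. Wrn was the 1 homologous recombination gene under 2-fold in ES cells against MEF, and it was higher in p53-null MEF than in ES cells by 0.71 on the log2 scale. An overlapping Wrn probe gave 243 units in p53-null MEF, 182 in ES cells and 62.0 in MEF, 3.12-fold and 2.92-fold higher than in MEF. The Wrn call in ES cells therefore depended on the choice between 2 probes at nearly the same place. Both lie on the minus strand of mm8, the brighter at chr8:34701921-34701980 and the other at chr8:34701912-34701971. They are printed to show how little separates them, with the 28 bases of their longest common run in capitals. The base just before that run is g in the brighter probe and a in the second, so they differ in sequence as well as in position.
Wrn, brighter probe: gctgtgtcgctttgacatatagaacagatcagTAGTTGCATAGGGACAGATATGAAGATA
Wrn, second probe: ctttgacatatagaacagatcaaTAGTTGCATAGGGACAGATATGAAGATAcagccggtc

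Promoters were read because most members were higher in the same direction. RefSeq (assembly GRCm38.p6) gave a window of 250 bases before and 50 bases after the start for 28 of the 37 members. The 9 members not among these were Rad54b, Rad50, Nbn, Wrn, Rbbp8, Xrcc2, Fancd2, Prkdc and Exo1. Searched on both strands were 2 E2F sites, TTTCCCGC and TTTGGCGC, the CCAAT box bound by NF-Y, and TTTGAA, the cell cycle homology region. E2F and NF-Y are transcription factors of genes used in proliferating cells. None of these motifs contains another, and a match describes letters, not binding. An E2F site was present in 6 of 28 member windows (21.4%), against 1.63% of all 27025 windows and 2.09% of 17492 windows of protein-coding genes. The 6 were Brca2, Bard1, Fancg, Xrcc6 and Msh6 with TTTCCCGC and Msh3 with TTTGGCGC. At their brightest probes Brca2, Bard1, Fancg and Msh3 were 2-fold higher or more in p53-null MEF than in MEF, while Xrcc6 and Msh6 were not. Blm, with the largest measured difference, and Brca1, Rad54l and Fanca held no E2F site. Whether the sites bear on the differences was not tested. A CCAAT box was present in 17 of 28 (60.7%), against 37.9% of all windows, and TTTGAA in 1 of 28 (3.57%), against 18.1%.

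The windows of Blm and Brca2, with large differences in both comparisons, and of Ung, with a large one in ES cells (4.55 on the log2 scale, against 1.97 in p53-null MEF), show these cases, with motifs in capitals. Blm lies on the minus strand at chr7:80534949-80535248 and holds CCAAT once on each strand. Brca2 lies on the plus strand at chr5:150522371-150522670 and holds TTTCCCGC on the other strand. Ung, which encodes the uracil glycosylase described with base excision repair, lies on the plus strand at chr5:114130185-114130484 and holds none of the letters searched.
Blm: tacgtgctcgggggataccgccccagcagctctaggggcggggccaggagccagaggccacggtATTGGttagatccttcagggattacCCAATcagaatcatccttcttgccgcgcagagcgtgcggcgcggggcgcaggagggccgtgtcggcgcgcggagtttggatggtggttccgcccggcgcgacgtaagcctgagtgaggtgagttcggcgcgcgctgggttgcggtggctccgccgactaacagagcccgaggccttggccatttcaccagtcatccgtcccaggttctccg
Brca2: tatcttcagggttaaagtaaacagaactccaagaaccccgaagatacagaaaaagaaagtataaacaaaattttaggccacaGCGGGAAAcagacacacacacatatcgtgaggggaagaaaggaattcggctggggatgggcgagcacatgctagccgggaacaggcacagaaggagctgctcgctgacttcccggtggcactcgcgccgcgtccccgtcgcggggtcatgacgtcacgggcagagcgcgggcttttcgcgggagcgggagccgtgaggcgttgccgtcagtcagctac
Ung: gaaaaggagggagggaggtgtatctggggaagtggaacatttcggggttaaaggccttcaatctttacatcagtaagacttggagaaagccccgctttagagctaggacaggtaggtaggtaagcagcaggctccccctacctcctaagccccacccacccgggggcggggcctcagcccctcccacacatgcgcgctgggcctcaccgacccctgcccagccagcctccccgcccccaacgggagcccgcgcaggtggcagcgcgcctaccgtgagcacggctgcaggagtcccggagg

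Fanconi proteins form a core complex that adds ubiquitin to FANCD2 when a fork meets a crosslink. Fancd2 gave 1236 units in p53-null MEF, 3399 in ES cells and 189 in MEF, 5.20-fold and 17.8-fold higher than in MEF. A dimmer Fancd2 probe was 2.20-fold higher in p53-null MEF and 12.8-fold higher in ES cells. Fanca, a scaffold of the core complex, gave 3081 units in p53-null MEF, 4571 in ES cells and 460 in MEF, 5.33-fold and 9.87-fold higher. A dim Fanca probe, well above background in ES cells but not in MEF, gave a bound of 0.36 on the log2 scale there. Fancm, the motor that anchors the complex on DNA, gave 399 units in p53-null MEF, 1170 in ES cells and 87.6 in MEF. It was 3.63-fold and 13.3-fold higher than in MEF, while its other measured probe was 1.62-fold higher in p53-null MEF and 14.8-fold higher in ES cells. These 3 genes had the largest differences of the group in both comparisons.

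The remaining Fanconi genes had smaller differences. Fancl, the ubiquitin ligase of the complex, gave 2240 units in p53-null MEF, 6599 in ES cells and 891 in MEF. It lay just inside the 2-fold threshold in p53-null MEF, with 1.73-fold at a second probe, and was 7.36-fold higher in ES cells. Fancc gave 485 units in p53-null MEF, 559 in ES cells and 180 in MEF, 2.15-fold and 3.09-fold higher than in MEF. Fance, whose product joins the core complex to FANCD2, gave 13721 units in p53-null MEF, 12915 in ES cells and 6829 in MEF. At 1.60-fold and 1.88-fold it was the 1 Fanconi gene under 2-fold in both comparisons. Fancg gave 2646 units in p53-null MEF, 1974 in ES cells and 730 in MEF, 2.89-fold and 2.69-fold higher. Its second measured probe gave 81.5 units in p53-null MEF, 188 in ES cells and 96.6 in MEF, and against MEF this probe was 1.94-fold higher in ES cells but 1.49-fold lower in p53-null MEF. The direction of Fancg in p53-null MEF thus depended on the probe.

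Most end joining genes were within 2-fold of the MEF level in p53-null MEF and higher in ES cells. Xrcc5, which encodes the Ku80 subunit of the clamp that grips DNA ends, gave 4793 units in p53-null MEF, 15604 in ES cells and 3541 in MEF. It was within the error in p53-null MEF against MEF, at 0.11 on the log2 scale, and 4.38-fold higher in ES cells. Xrcc6, which encodes the partner Ku70, gave 1489 units in p53-null MEF, 3077 in ES cells and 668 in MEF, 1.78-fold and 4.58-fold higher than in MEF. Prkdc, the catalytic subunit of DNA-dependent protein kinase, is the only member printed at 10 spots. Its mean over spots was 424 ± 14.4 units in p53-null MEF (SD, 10 spots), 921 ± 20.5 in ES cells (SD, 9 kept spots) and 265 ± 9.37 in MEF (SD, 10 spots). It was 1.27-fold higher in p53-null MEF and 3.45-fold higher in ES cells, and spots of 1 array are not replicates of the cells.

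The ligation step is carried out by LIG4 with XRCC4. Lig4 gave 1031 units in p53-null MEF, 1373 in ES cells and 388 in MEF, 2.12-fold and 3.52-fold higher than in MEF, with 1.66-fold at a second probe in p53-null MEF. Xrcc4 gave 733 units in p53-null MEF, 725 in ES cells and 590 in MEF, and its log2 differences of -0.01 and 0.29 were the smallest of the members in both comparisons. Its second probe gave -0.01 and 0.47, so Xrcc4 was close to the MEF level on all arrays. Trp53bp1 encodes 53BP1, which shields ends from being cut back. Its brighter probe gave 2285 units in p53-null MEF, 3421 in ES cells and 1583 in MEF, 1.15-fold and 2.15-fold higher than in MEF. A second Trp53bp1 probe gave 50.8 units in p53-null MEF, 196 in ES cells and 112 in MEF, 2.76-fold lower in p53-null MEF and 1.75-fold higher in ES cells. No other measured member probe was lower than in MEF by 2-fold or more, in p53-null MEF or in ES cells.

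Mismatch repair proteins recognise wrongly paired bases, remove the new strand and let it be copied again. Msh6, part of the main recognition complex, gave 13756 units in p53-null MEF, 75227 in ES cells and 6084 in MEF. It was 1.80-fold higher in p53-null MEF and 12.3-fold higher in ES cells than in MEF. Msh3, which recognises larger loops, gave 1930 units in p53-null MEF, 6564 in ES cells and 581 in MEF, 2.65-fold and 11.2-fold higher. Of 2 further measured Msh3 probes, the lower was 0.33 higher on the log2 scale in p53-null MEF and 3.32 higher in ES cells. Pms2, the endonuclease subunit that follows recognition, gave 1004 units in p53-null MEF, 2321 in ES cells and 508 in MEF, 1.57-fold and 4.54-fold higher. A dimmer Pms2 probe, not well above background in MEF, gave bounds on the log2 scale of 1.89 in p53-null MEF and 3.59 in ES cells. Exo1, the exonuclease that removes the strand, with its probe at chr1:177745226-177745285 on the plus strand of mm8, gave 7041 units in p53-null MEF, 19810 in ES cells and 811 in MEF, 6.92-fold and 24.3-fold higher. Exo1 also cuts back broken ends for recombination, and it alone of the 4 exceeded 5-fold in p53-null MEF. In ES cells all 4 exceeded 4-fold, with 3 of them above 10-fold.

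Base excision repair starts with glycosylases that remove a damaged base. Ung, which removes uracil, gave 1966 units in p53-null MEF, 9433 in ES cells and 399 in MEF, 3.93-fold and 23.5-fold higher than in MEF. Ogg1, which removes oxidised guanine, gave 2774 units in p53-null MEF, 1402 in ES cells and 977 in MEF, 2.26-fold and 1.43-fold higher. Its overlapping probe was 1.65-fold and 1.90-fold higher, so the 2-fold call in p53-null MEF held at 1 probe of 2. The break sensor Parp1 gave 3306 units in p53-null MEF, 16086 in ES cells and 1628 in MEF, 1.62-fold and 9.82-fold higher. Xrcc1, a scaffold that follows PARP1, gave 15605 units in p53-null MEF, 15715 in ES cells and 5825 in MEF, 2.13-fold and 2.68-fold higher. Its partner ligase gene Lig3 gave 705 units in p53-null MEF, 404 in ES cells and 300 in MEF, 1.87-fold and 1.34-fold higher. Ung and Parp1 thus stood well above the other 3 genes of the group in ES cells.

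Overlapping probes show how far probe choice alone moved a value. Both Parp1 probes and both Ogg1 probes are on the plus strand of mm8 and share 40 of their 60 bases, printed in capitals. The Parp1 probes lie at chr1:182436885-182437183, the brighter, and chr1:182436865-182437163, each split over 299 positions of the genome, and their log2 differences were 0.69 and 0.88 in p53-null MEF and 3.30 and 3.34 in ES cells, both against MEF. The Ogg1 probes lie at chr6:113299868-113299927, the brighter, and chr6:113299888-113299947, and their differences were 1.18 and 0.72 in p53-null MEF and 0.51 and 0.92 in ES cells. The Parp1 probes thus differed by less than the error of 0.20, and the Ogg1 probes by 0.45 and 0.41.
Parp1, brighter probe: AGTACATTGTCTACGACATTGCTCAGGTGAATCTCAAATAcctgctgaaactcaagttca
Parp1, second probe: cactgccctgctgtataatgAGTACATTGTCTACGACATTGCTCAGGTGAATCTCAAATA
Ogg1, brighter probe: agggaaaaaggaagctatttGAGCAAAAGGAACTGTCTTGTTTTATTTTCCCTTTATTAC
Ogg1, second probe: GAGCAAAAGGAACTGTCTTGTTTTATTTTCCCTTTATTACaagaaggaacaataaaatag

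Across members with several measured probes, agreement was closer in ES cells against MEF than in p53-null MEF against MEF. In p53-null MEF against MEF, 17 members had at least 2 such probes, with a median range of 0.87 on the log2 scale between their highest and lowest difference. The range was over 1 for 7 of them, namely Brca1, Mre11a, Fancd2, Fancg, Fancm, Trp53bp1 and Msh3, and the sign differed for Fancg and Trp53bp1. For ES cells against MEF the median range over 17 members was 0.30, with Brca1, Rad54b and Xrcc2 over 1 and the sign the same at every measured probe. The brighter probe gave the highest difference in 13 of 17 members in p53-null MEF against MEF, and in 8 of 17 in ES cells against MEF. For ES cells against p53-null MEF, it gave the highest difference in 3 of 21 members and the lowest in 16. The brightest probe stands for each gene in the counts above. With the mean of all probes in its place, 21 of 37 members exceeded the MEF value by 2-fold or more in p53-null MEF and the median was 1.19.

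**Figure D3:**
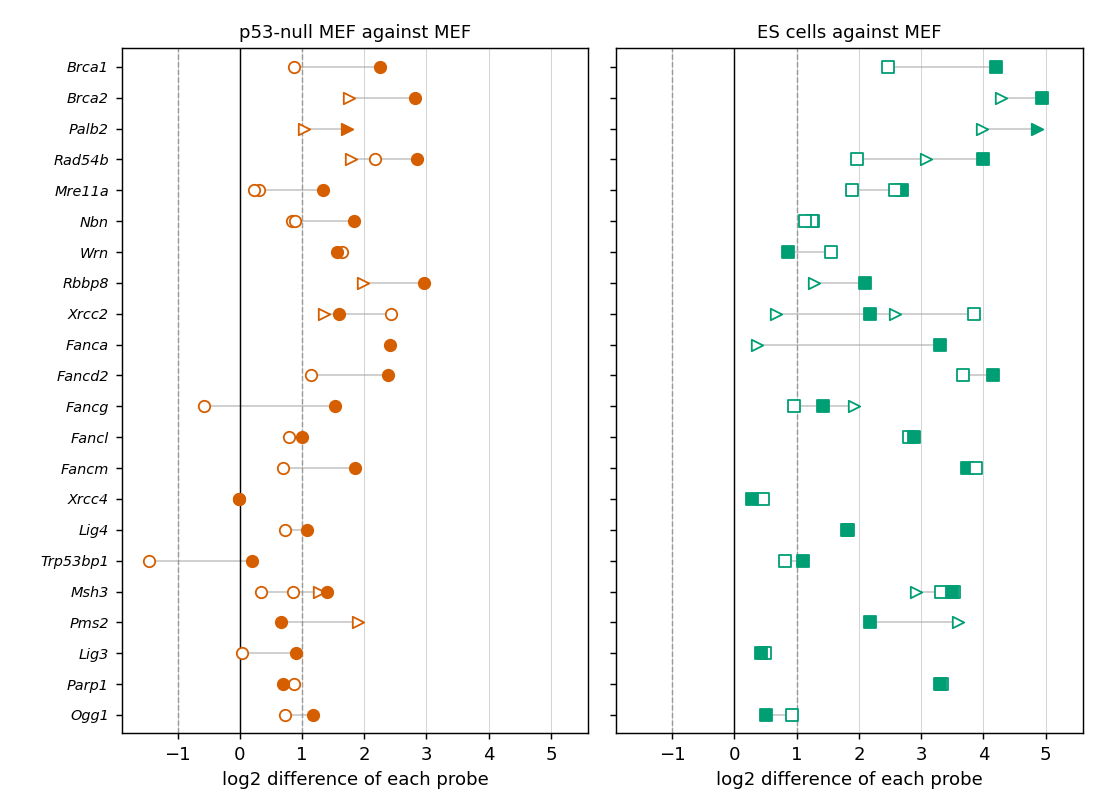
Log2 difference of every probe for the members with several probes, in p53-null MEF against MEF (left) and ES cells against MEF (right). Filled points are the probe that stands for the gene, open points its other probes and triangles are bounds. Probes of Fancg and Trp53bp1 fall on both sides of 0 on the left, and all measured probes lie above 0 on the right.

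**Figure D4:**
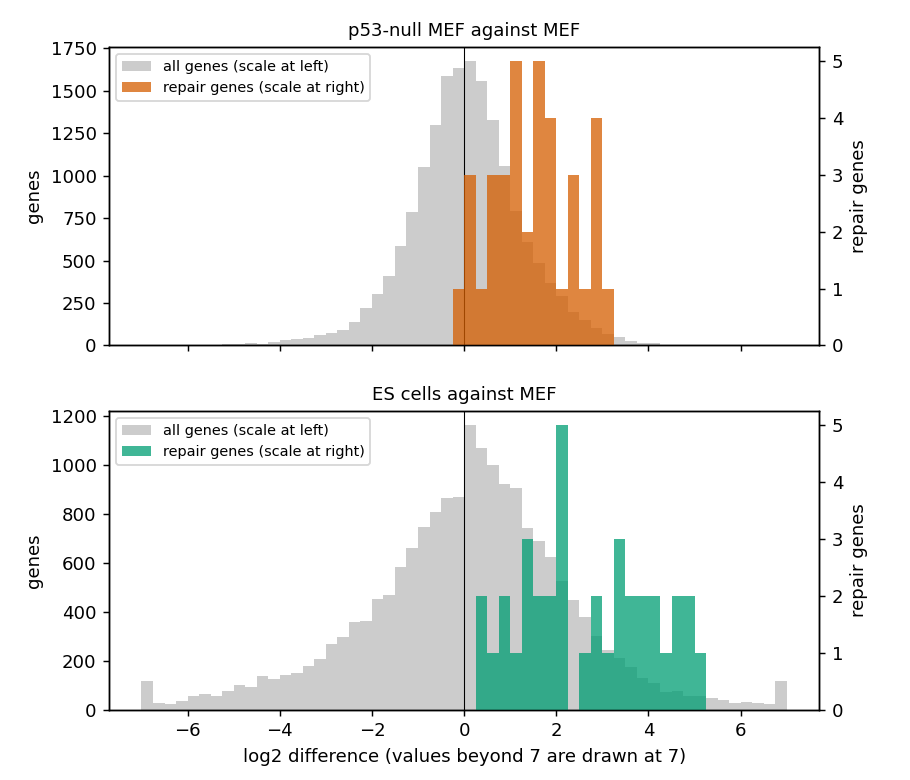
Distribution of log2 differences of all measured genes (17256 in p53-null MEF against MEF, 18586 in ES cells against MEF) on the left scale and of the 37 members on the right scale, as counts per bin. Differences beyond 7 are drawn at 7. The members' medians of 1.53 and 2.69 lie to the right of the medians of all genes, 0.03 and 0.20.

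ES cells were also set directly against p53-null MEF, a pair that the series design does not name. Of 37 members, 22 were 2-fold higher or more in ES cells, 0 lower by as much and 15 neither, with a median log2 difference of 1.37 that turned to -0.38 with spike-in scaling. Over the 18264 genes measured there, 26.8% were higher and 23.7% lower by 2-fold or more. Palb2 (8.87-fold), Msh6 (6.82-fold), Parp1 (6.07-fold) and Ung (5.98-fold) exceeded 5-fold. These 4 of 37 lie near the share of all genes, 8.67%. In 30 members the order with 75th percentile scaling was ES cells, then p53-null MEF, then MEF. The share of all genes in that order was not counted. In 6 members, Nbn, Wrn, Rbbp8, Fancg, Lig3 and Ogg1, p53-null MEF was highest, though Fancg differed from ES cells by 0.10, within the error. Another measured probe of Nbn, Fancg, Lig3 and Ogg1 was higher in ES cells, by 0.40, 1.52, 0.45 and 0.20 on the log2 scale.

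These counts depended on the scale set between the p53-null MEF array and the others. With scaling on 7 spike-in probes, RNA added in known amounts, the median of all genes moved to 2.01 in p53-null MEF against MEF. All 37 members were then 2-fold higher or more, as were 13591 of all 17256 genes. The median of all genes moved to -1.50 in ES cells against p53-null MEF. There 2 members were higher and 13 lower by 2-fold or more, against 22 and 0 above. Of all 18264 genes in that comparison, 1167 were higher and 11386 lower by as much. Such a scaling adds the same amount to every measured log2 difference of an array pair, whereas a bound stops at 0. The members' median in p53-null MEF against MEF thus lies 1.50 above that of all genes with either scaling, largely by construction. In ES cells against p53-null MEF it lies 1.20 above with the 75th percentile and 1.12 above with spike-ins. For ES cells against MEF the median of all genes with spike-ins was 0.43. There 34 members were 2-fold higher or more, beside 6950 of all 18586 genes.

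Markers of proliferation differed in the same direction as the members. Of 18 proliferation genes, 16 exceeded the MEF value by 2-fold or more in p53-null MEF (median log2 difference 2.05) and 18 in ES cells (median 3.02). Their summed signal was 326006 units in p53-null MEF, 497362 in ES cells and 63525 in MEF. Mki67, which marks dividing cells, gave 38308 units in p53-null MEF, 26676 in ES cells and 2388 in MEF. The replicative helicase gene Mcm5 gave 9941 units in p53-null MEF, 30636 in ES cells and 1480 in MEF, and the mitotic cyclin gene Ccnb1 gave 5931 in p53-null MEF, 13480 in ES cells and 787 in MEF. In bulk RNA, a larger share of dividing cells and more RNA per cell cannot be told apart, and the part of proliferation in the members' differences was not tested.

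Other repair genes were less uniform than the members. A wider list of 90 held further genes of the members' pathways. It also held 17 genes of nucleotide excision repair and direct reversal, which lie outside those pathways. Of the 90, 85 were measured in p53-null MEF against MEF, where 33 were higher and 3 lower by 2-fold or more. Their median log2 difference was 0.43. In ES cells against MEF 86 of the 90 were measured, with 49 higher and 2 lower by 2-fold or more and a median of 1.31. The 17 genes alone had 1 higher, 2 lower and a median of -0.37 in p53-null MEF. In ES cells they had 3 higher, 1 lower and a median of 0.20. By pathway, 16 of 30 further homologous recombination genes, 5 of 7 Fanconi and crosslink genes, 4 of 6 mismatch genes, 5 of 16 base excision genes and 2 of 9 end joining genes exceeded the MEF value by 2-fold or more in p53-null MEF. The ES cell counts were 20 of 30, 5 of 8, 6 of 6, 11 of 16 and 4 of 9. The shares of all genes were 18.5% in p53-null MEF and 32.7% in ES cells, and the 2 of 9 end joining genes in p53-null MEF lie near the first.

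The largest differences of the wider list in each direction follow, and only some of them were larger than that of any member. Polq, the polymerase of an alternative end joining route, gave 415 units in p53-null MEF and 24.7 in MEF, 13.4-fold higher. Fancb, of the Fanconi core complex, was 8.31-fold higher in p53-null MEF than in MEF, and the glycosylase gene Neil3 8.27-fold higher. Both were close to the 8.09-fold of the member Blm. Mgmt, which removes alkyl groups from guanine, gave 20.2 units in p53-null MEF and 220 in MEF, 13.7-fold lower, and Ercc5 and Parp3 were 2.47-fold and 2.11-fold lower, whereas with spike-in scaling 1 gene of the list was lower by 2-fold or more. Rif1, which acts with 53BP1 and in replication timing, gave 23498 units in ES cells and 189 in MEF, 124-fold higher. The nuclease genes Dna2 and Eme1 were 42.8-fold and 23.3-fold higher in ES cells than in MEF, whereas Parp3 was 29.5-fold and Mgmt 3.42-fold lower. Set against p53-null MEF, Rif1 was 33.4-fold, Eme1 10.6-fold and Neil2 7.31-fold higher in ES cells. Neil2 gave 19.2 units in p53-null MEF, also near the lowest signal well above background, with an error of 0.34. In the same comparison Mad2l2 was 3.06-fold and Neil3 2.40-fold lower and Parp3 stood at -3.81 on the log2 scale. End joining in ES cells thus held both Rif1, with the largest difference of the wider list, and Xrcc4, with the smallest of the members.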

How the data were processed

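Per the file headers, the deposited linear spot intensity was made with version 9.5.3.1 of Agilent Feature Extraction, with background subtracted and spatial trends corrected but arrays not made comparable. The series value table repeats that intensity (ratios of 0.995 to 1.005), unlogged and uncentred, with column medians of 51.8 for p53-null MEF, 50.0 for ES cells and 43.2 for MEF. Direction does not arise with 1 signal per array. Processed signals were put on the log2 scale relative to the 75th percentile of that array's 43379 non-control spots. Control spots and spots marked uneven or outlying (62 for p53-null MEF, 176 for ES cells, 192 for MEF) were left out, and spots of a probe were averaged. No spot was saturated. Spots well above background numbered 26198 for p53-null MEF, 27954 for ES cells and 26462 for MEF.

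A gene with several probes was represented by the one brightest on average over the 3 arrays (log2 scale). Probe names came from the design files and, for synonyms, from RefSeq (GRCm38.p6), which matched 19472 labels. Rad54b was named E130016E03Rik in the files. A difference counted as measured where both arrays were well above background, and as a bound where 1 was not. All members were named, with other probes that differed by over 1 on the log2 scale, and of the wider list the 3 largest differences each way in each comparison. Probe positions are on mm8, from the design file of the p53-null MEF array. The ES cell and MEF files cite mm7, and exon or UTR position was not determined. Members and lists were chosen with earlier results of these data known. Python 3.11.15, pandas 2.3.3, numpy 2.4.6, R 4.3.3 and limma 3.58.1 (quantile, cyclic loess and normexp) were used, and the calculation was tested on simulated data.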

Additional observations from a re-analysis of the deposited data

How the results depend on the processing

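Each count and median was recomputed under 12 alternatives. Of the 26 members higher in p53-null MEF than in MEF by 2-fold or more, 15 stayed so in all 12 and 25 kept their sign, the exception being Fancg, which stood at its dimmer probe's -0.57 when probes were named by accession alone. The 11 that passed below 2-fold in at least 1 alternative were Bard1, Palb2, Mre11a, Nbn, Fancc, Fancg, Fancl, Lig4, Msh3, Xrcc1 and Ogg1. Of the 32 in ES cells against MEF, 30 stayed so in all 12, Trp53bp1 and Fancg being the exceptions, and 32 kept their sign. Of the 22 in ES cells against p53-null MEF, 2 stayed in all 12, the others being lost with spike-in scaling.

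The members' median in p53-null MEF against MEF was 1.86 without scaling, 3.51 with spike-ins, 1.13 with normexp, 1.19 with the mean of probes and 1.10 with the median probe. For ES cells against MEF it was 2.46 with median scaling, 2.92 with spike-ins, 2.16 with normexp and 2.38 with the mean of probes. For ES cells against p53-null MEF it was 1.10 with median scaling (1 member at least 2-fold lower), 1.05 without scaling (2 lower) and -0.38 with spike-ins (2 higher, 13 lower). With spike-ins 16 of the 37 members turned sign in that comparison and 22 were below 0, beside 6 with the 75th percentile. Those that turned among the 22 called were Rad54b (-0.59), Rad50 (-0.21), Mre11a (-0.40), Xrcc3 (-0.67), Xrcc6 (-0.38), Prkdc (-0.30) and Pms2 (-0.22).

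For the wider repair list in p53-null MEF against MEF, the median was 0.76 without scaling (1 lower), 2.41 with spike-ins (82 higher, 1 lower) and 0.66 with the mean of probes or the median probe. ES cells against MEF gave 1.09 with median scaling and 1.55 with spike-ins, and 1 gene was lower with accession names. Against p53-null MEF they gave 0.42 with median scaling, 0.37 without scaling and -1.03 with spike-ins (3 higher, 44 lower). For the proliferation list in p53-null MEF against MEF it was 4.03 with spike-ins and 2.37 without scaling. Against MEF the ES cells gave 2.80 with median scaling and 3.26 with spike-ins. Against p53-null MEF they gave 0.52 with median scaling, 0.46 without scaling (1 lower) and -0.96 with spike-ins (0 higher, 9 lower). Why the spike-ins of the p53-null MEF array differ was not tested. Over all genes, the counts in p53-null MEF against MEF were 4637 higher and 1893 lower without scaling and 13591 and 272 with spike-ins, beside 3185 and 2875. In ES cells against p53-null MEF they were 3940 higher and 5178 lower with median scaling, 3753 and 5369 without scaling and 1167 and 11386 with spike-ins, beside 4896 and 4335.

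With 1 array per group, the number of arrays limits the precision, and leaving out an array removes a group. No paired analysis was possible because each group has 1 array and the labels carry no replicate numbers to pair. Signal over background limits Bard1 and Palb2, whose MEF values are not well above background and whose folds are bounds.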

Other observations

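Nucleotide excision repair, which removes bulky damage, and direct reversal were not among the members' pathways. Of 17 genes of these routes, 1 was higher and 2 were lower by 2-fold or more in p53-null MEF against MEF, with a median log2 difference of -0.37. Over all genes 18.5% were higher and 16.7% lower by as much. The higher gene was Rad23b, which helps recognise damage, with 57479 units in p53-null MEF and 15581 in MEF, 2.94-fold higher. The lower genes were Mgmt and Ercc5, a nuclease gene. These signs hold for the 75th percentile scaling, since spike-in scaling put the median of all genes at 2.01. The damage recognition genes Ddb2 and Xpc lay between these. Ddb2 gave 247 units in p53-null MEF, 581 in ES cells and 147 in MEF, 1.34-fold and 3.94-fold higher than in MEF. Xpc gave 1151 units in p53-null MEF, 2080 in ES cells and 1659 in MEF, 1.81-fold lower in p53-null MEF and 1.25-fold higher in ES cells. In ES cells against MEF, 3 of the 17 were higher and 1 lower by 2-fold or more, their median being 0.20, the same as over all genes.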
